A study of Mus musculus with 16 samples.

Results

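Car4 and Cthrc1 are the 2 genes described here, of 27179 in the deposited table of gene counts. They were chosen from measured values, for having no counts in any library at 0 h and high levels at 40 h in both media. Those levels are therefore a description and carry no test. Tests were made of the difference between the media. The choice did not use that difference, but it did use the 40 h levels of both media, on which the 40 h comparison and the step from 24 to 40 h also draw. The comparisons at 12 and 24 h do not contrast those levels, but they are not wholly free of the choice. Their spread was estimated from all libraries in one fit. Both genes entered the 12 h test through later groups, since with only the groups compared neither passed the filter there.

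RNA was sequenced from mouse embryonic stem cells in 16 libraries, which make 8 groups of 2. One arm was kept in 2i/LIF, a serum-free medium with N-2 and B-27 supplements, and the other in serum/LIF+2i, which has 10% fetal bovine serum. Both media held leukaemia inhibitory factor (LIF) and 2i, the inhibitors CHIR99021 (of GSK3) and PD0325901 (of MEK), so the 0 h controls of both arms carried them. All cells were first grown in serum/LIF on gelatin and then adapted to their medium, and the labels name no line or strain. Cells at 12, 24 and 40 h had been moved to serum-free medium without 2i or LIF, which starts exit from naive pluripotency. That medium was the arm's own base for 2i/LIF, and a mix with glutamine-free DMEM plus added glutamine for serum/LIF+2i, so the effects of the maintenance medium and of the exit medium cannot be told apart. The sets of cells are called the 2i/LIF arm and the serum arm. The treatment protocol gives 24 and 40 h for serum/LIF+2i cells, and the 12 h libraries of that arm follow their titles. Nothing in the labels says that replicates were separate cultures. The p-values thus set differences against the spread between these libraries, pooled in part over genes, which may be technical.

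Car4 encodes carbonic anhydrase 4, an enzyme held on the outer cell surface by a lipid (GPI) anchor. Carbonic anhydrases interconvert carbon dioxide and water with bicarbonate and a proton, and surface forms work beside carriers of bicarbonate and of lactate. Cthrc1 encodes collagen triple helix repeat containing 1, a secreted glycoprotein with a short collagen-like stretch. It is known from injured arteries and matrix-producing fibroblasts, and it has been described as a cofactor that favours Wnt signalling through Frizzled receptors and Ror2 toward planar cell polarity.

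On GRCm38 (mm10, the build in the submitters' processing notes), RefSeq places Car4 (Entrez 12351) on chromosome 11 from 84957754 to 84966054, and Cthrc1 (Entrez 68588) on chromosome 15 from 39076932 to 39087121. GENCODE M21 gives both on the plus strand, with 8 exons in the transcript of Car4 with the longest coding sequence (305 codons) and 4 in that of Cthrc1 (245 codons). No other RefSeq gene overlaps either of them. The RefSeq promoter table held 1 of the 2 genes. The 250 bases before the Car4 start, chr11:84957504-84957753 on the plus strand of GRCm38.p6, are shown because the gene had no counts at 0 h and this window lies just before its start. Capitals mark CpG pairs, the sites at which mouse DNA can be methylated.
Car4: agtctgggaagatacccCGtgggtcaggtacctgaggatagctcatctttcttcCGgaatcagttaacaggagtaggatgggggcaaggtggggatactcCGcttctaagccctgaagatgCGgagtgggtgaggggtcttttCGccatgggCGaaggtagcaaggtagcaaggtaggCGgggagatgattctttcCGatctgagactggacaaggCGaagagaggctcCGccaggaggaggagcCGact
These bases held 11 CpG pairs. With the 50 bases after the start there were 15, against a median of 7 over 32851 promoter windows of the same length, and 65.4% of the windows had fewer. Of 12 short motifs searched on both strands of the whole window, 2 had a match. TATAAA occurred once, 43 bases after the RefSeq start, as in 13.6% of all windows, and CAGAC, the core of the SMAD element, once at its far end, as in 49.6%. The other 10 had no match, which says only that these letters were not in this window: the CCAAT box (in 37.4% of all windows), the GC box GGGCGG (35.7%), the E-box CACGTG (7.15%), the AP-1 element TGANTCA (7.81%), the cyclic AMP element TGACGTCA (1.79%), the STAT element TTCNNNGAA (8.3%), the TCF/LEF element ATCAAAG (3.73%), the homeodomain element TAATCC (7.06%), the POU octamer ATGCAAAT (1.74%) and the ETS element ACCGGAAGT (1.1%). No methylation or binding data were used here.

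Levels are given in CPM, a gene's counts relative to the library total after scaling by trimmed mean of M values (TMM). Libraries held 5931381 to 11142744 counts, 3 counts being worth 0.259 to 0.517 CPM, and ribosomal RNA genes took 0.468% to 1.77%. Replicates differed by more than sampling noise in every group, with a chi-square per degree of freedom of 1.39 to 5.42, so none was a copy. The 5 markers of embryonic stem cells and epiblast were over 3 counts in every group, with summed levels of 1399 to 2846 CPM over all groups. The sum hides opposite changes between 0 and 40 h, given here for the 2i/LIF arm and then the serum arm. Sox2 went from 358 to 142 and from 403 to 144 CPM, and Sall4 from 329 to 234 and from 327 to 244 CPM. Lin28a went from 76.1 to 815 and from 113 to 850 CPM, and Utf1 from 19.98 to 400 and from 45.9 to 366 CPM. Pou5f1 went from 641 to 635 and from 707 to 676 CPM. In bulk samples, fewer cells of a type and less RNA per cell cannot be told apart.

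Car4 had 0 counts in all 4 libraries at 0 h. In the 2i/LIF arm it then had 3 and 1 counts at 12 h (0.411 and 0.134 CPM in replicates 1 and 2), 36 and 45 at 24 h (4.998 and 6.84 CPM), and 422 and 379 at 40 h (52.9 and 51.5 CPM). The 3 later times of this arm were thus well apart, with the largest gain in CPM between 24 and 40 h. In the serum arm it had 10 and 7 counts at 12 h (1.35 and 0.745 CPM), 109 and 157 at 24 h (12.1 and 15.998 CPM), and 473 and 459 at 40 h (40.8 and 44.4 CPM). The serum-arm libraries lay above those of the 2i/LIF arm at 12 and 24 h and below them at 40 h, without overlap at any of the 3 times. The order of group means, from low to high, was 0 h in both media, 12 h in the 2i/LIF arm, 12 h in the serum arm, 24 h in the 2i/LIF arm, 24 h in the serum arm, 40 h in the serum arm and 40 h in the 2i/LIF arm, and no neighbouring groups with counts overlapped.

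Cthrc1 also had 0 counts in all 4 libraries at 0 h. In the 2i/LIF arm it had 5 and 2 counts at 12 h (0.685 and 0.267 CPM), 45 and 45 at 24 h (6.25 and 6.84 CPM), and 236 and 229 at 40 h (29.6 and 31.1 CPM). In the serum arm it had 7 and 5 counts at 12 h (0.946 and 0.532 CPM), 40 and 51 at 24 h (4.42 and 5.197 CPM), and 346 and 289 at 40 h (29.8 and 28.0 CPM). The media overlapped at 12 and 40 h, and at 24 h both 2i/LIF-arm libraries lay above both of the serum arm. Within each arm the libraries of the 3 later times did not overlap for either gene. A count of 0 at 0 h allows 3 counts, a mean of 0.486 CPM in the 2i/LIF arm and 0.441 CPM in the serum arm. Against these limits at 24 h, Car4 was at least 12.2-fold higher in the 2i/LIF arm and at least 31.8-fold higher in the serum arm, and Cthrc1 at least 13.5-fold and at least 10.9-fold higher. At 40 h the bounds were 107 and 96.6 for Car4 and 62.4 and 65.6 for Cthrc1. These limits, like the intervals on counts, reflect counting alone, and no molecular identifiers are recorded.

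**Figure D1:**
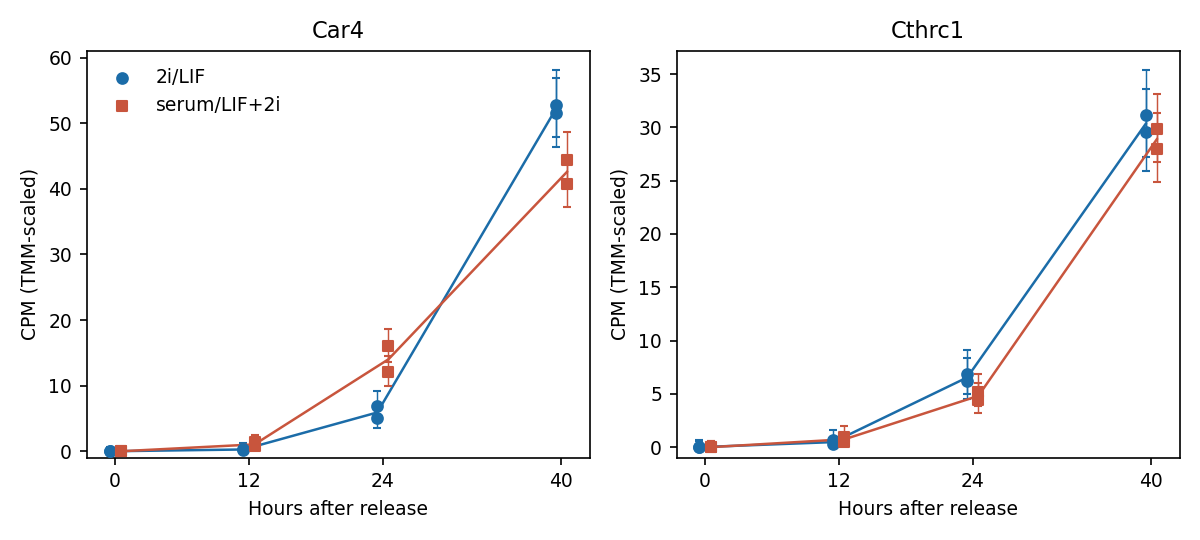
CPM of Car4 (left) and Cthrc1 (right) against hours after release in the 2i/LIF arm (circles) and the serum arm (squares). Each point is 1 library with its 95% Clopper-Pearson counting interval, and lines join the means of 2 libraries. The Car4 lines cross between 24 h (5.92 against 14.0 CPM) and 40 h (52.2 against 42.6 CPM), and those of Cthrc1 stay close (30.3 against 28.9 CPM at 40 h).

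The course of each gene was also read as a share of its own 40 h mean, where the spread is the SD over the choices of 1 library per time. For Car4 in the 2i/LIF arm the 12 h level was 0.522% ± 0.307 of the 40 h mean and the 24 h level 11.3% ± 2.04. In the serum arm these shares were 2.46% ± 0.833 and 32.9% ± 5.603. The lowest 24 h share of Car4 in the serum arm, 27.1%, exceeded the highest in the 2i/LIF arm, 13.3%. For Cthrc1 the 24 h share was 21.6% ± 1.30 in the 2i/LIF arm and 16.6% ± 1.66 in the serum arm, and the 12 h shares were 1.57% ± 0.797 and 2.56% ± 0.834. The step from 24 to 40 h was thus 8.82-fold for Car4 in the 2i/LIF arm (7.53 to 10.6 over choices of library) and 3.04-fold in the serum arm (2.55 to 3.68). For Cthrc1 it was 4.64-fold (4.32 to 4.98) and 6.01-fold (5.38 to 6.74). These are descriptions, since the genes were chosen for high levels at 40 h.

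The tests asked whether the level at a given time differed between the arms, with log2 fold changes of the serum arm over the 2i/LIF arm. They come from edgeR's quasi-likelihood test over 14288 genes with Benjamini-Hochberg adjustment. At 24 h, Car4 stood at 14.0 ± 2.79 CPM (SD, n = 2) in the serum arm and at 5.92 ± 1.30 CPM in the 2i/LIF arm. The log2 fold change was 1.26 ± 0.18 (SE), with an adjusted p of 9.63e-09 by edgeR, while 31.1% of all genes were called at that time, 14.1% higher and 17% lower in the serum arm. This call held under all 23 alternatives run, with adjusted p from 1.13e-10 to 0.000209. At 40 h the sign was the opposite, with 42.6 ± 2.58 CPM against 52.2 ± 0.957 CPM and a log2 fold change of -0.30 ± 0.09 (adjusted p 0.00709, edgeR). Of all genes 27.3% were called at 40 h, 13.9% higher and 13.4% lower. Because high 40 h levels in both media chose the gene, this comparison is not independent of the choice. The call of Car4 at 40 h was lost with DESeq2 (adjusted p 0.271), without replicate 1 of the 2i/LIF arm at 40 h (0.0852) and without replicate 1 of the serum arm at 40 h (0.137), and adjusted p ran from 0.00144 to 0.271 over the alternatives.

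At 12 h Car4 rested on 17 counts in the serum arm and 4 in the 2i/LIF arm, a ratio after scaling of 3.74 with a 95% counting interval of 1.22 to 15.3. Its 12 h group of the 2i/LIF arm was at the limit of 3 counts per library, so the fitted log2 fold change of 1.84 ± 0.71 depends on the prior count. The adjusted p was 0.0386 (edgeR), where 30.3% of all genes were called, 14.8% higher and 15.5% lower. It was 0.0825 with DESeq2, 0.0501 without replicate 1 and 0.289 without replicate 2 of the 2i/LIF arm at 12 h, and 0.256 without replicate 1 of the serum arm at 12 h, within a range of 0.0293 to 0.289 over the alternatives. Car4 also entered this test only through later groups, since it did not pass the filter with only the 12 h groups. The larger level of Car4 at 12 h in the serum arm is therefore much less firm than that at 24 h, and few counts bear on it.

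Cthrc1 did not pass the test between the media at any of these times. Its log2 fold change was 0.58 ± 0.67 at 12 h (95% interval -0.96 to 2.11), -0.44 ± 0.22 at 24 h (-0.95 to 0.08) and -0.07 ± 0.11 at 40 h (-0.31 to 0.18), with adjusted p of 0.553, 0.133 and 0.691 (edgeR). The interval was narrowest at 40 h and widest at 12 h, where the gene had 7 counts in the 2i/LIF arm and 12 in the serum arm. None of its comparisons was called under any alternative run.

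**Figure D2:**
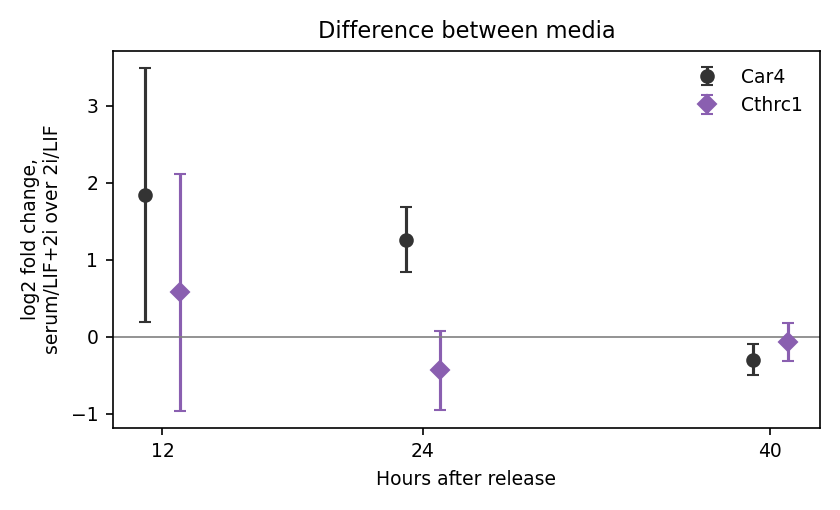
Fitted log2 fold change of the serum arm over the 2i/LIF arm against hours after release for Car4 (circles) and Cthrc1 (diamonds), with 95% intervals from the standard error and 8 residual degrees of freedom. Car4 lies above 0 at 12 h (1.84) and 24 h (1.26) and below it at 40 h (-0.30), and every interval of Cthrc1 includes 0.

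Whether the step itself differed between the media was tested as an interaction. From 24 to 40 h the log2 step of Car4 was 1.55 ± 0.20 smaller in the serum arm (-1.55; 95% interval -2.03 to -1.08; adjusted p 1.7e-09, edgeR), where 12.2% of all genes were called, 6.57% with a larger step there and 5.63% with a smaller one. It held under all 23 alternatives, with adjusted p of 2.6e-12 to 2.38e-05, and it shares its libraries with the comparisons at 24 and 40 h, so it too is not independent of the choice. For Cthrc1 the same difference was 0.37 ± 0.25 (95% interval -0.20 to 0.94; adjusted p 0.384). From 12 to 24 h the differences were -0.58 ± 0.74 for Car4 and -1.01 ± 0.70 for Cthrc1, with adjusted p of 0.656 and 0.357 (edgeR) and 17.1% of all genes called, 7.21% higher and 9.87% lower. Without replicate 2 of the 2i/LIF arm at 12 h, the value for Car4 was 0.0027.

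The ratio of the genes within a library does not depend on how libraries are scaled. Counts were divided by the gene lengths in the deposited table, 1300 bases for Car4 and 1164 for Cthrc1. In the 2i/LIF arm the ratio of Car4 to Cthrc1 per length was 0.537 and 0.448 at 12 h, 0.716 and 0.895 at 24 h, and 1.60 and 1.48 at 40 h. The ratio in this arm was thus below 1 at 12 and 24 h and above 1 at 40 h. It rested on 3 against 5 and 1 against 2 counts at 12 h, and on 36 against 45 and 45 against 45 at 24 h. Whether it lay below 1 beyond counting error at those times was not tested. In the serum arm the ratio was 1.28 and 1.25 at 12 h, 2.44 and 2.76 at 24 h, and 1.22 and 1.42 at 40 h, above 1 at every time. The media did not overlap at any time, though the serum arm too had few counts at 12 h (10 against 7 and 7 against 5). The mean ratio at 24 h was 3.22 times as high in the serum arm. A two-sided exact permutation test gave p = 0.333 at each time, the smallest that this test allows with 2 libraries against 2. No other test of the ratio was run.

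**Figure D3:**
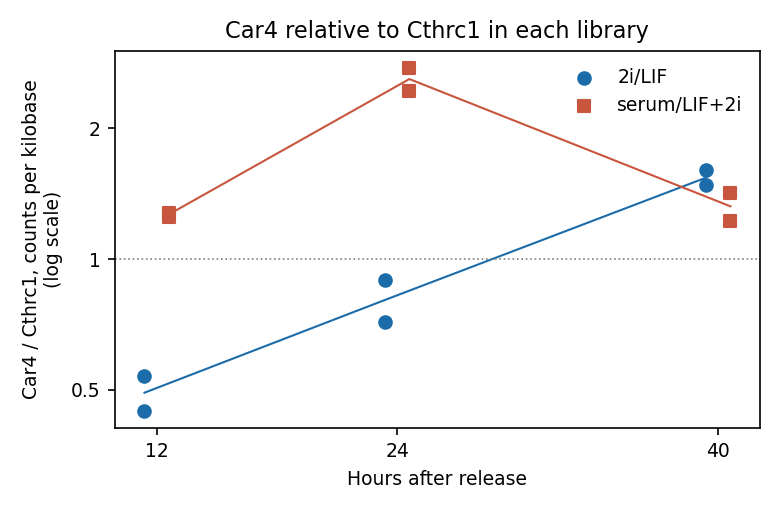
Ratio of Car4 to Cthrc1 in counts per kilobase of gene length (log axis) against hours after release. Each point is 1 library, lines join the means, and the dotted line is a ratio of 1. At 12 h each library had 10 or fewer counts of either gene. The 2i/LIF-arm libraries go from about 0.492 on average at 12 h to 1.54 at 40 h, and those of the serum arm are highest at 24 h with a mean of 2.60.

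On the same per-length scale, Car4 reached 40.1 ± 0.736 CPM per kilobase (SD, n = 2) at 40 h in the 2i/LIF arm and 32.8 ± 1.99 in the serum arm, above 83.8% and 80.9% of the 14288 genes tested. Cthrc1 reached 26.1 ± 0.947 and 24.8 ± 1.12, above 76% and 75.4%. The median gene was at 8.37 and 8.47 CPM per kilobase. At 24 h Car4 was above 37.9% of genes in the 2i/LIF arm and 55.5% in the serum arm.

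Of the 27179 genes, 8609 had 0 counts in all 4 libraries at 0 h. Of these, 356 were detected in all 4 libraries at 40 h, and 9 had a mean of at least 5 CPM there in both media. Ranked by the lower of the media means at 40 h, Car4 was first (42.6 CPM) and Cthrc1 was next (28.9 CPM). The pair was chosen for such values, so this rank restates the choice. Just outside the pair stood Tmem54, a transmembrane protein, at 14.9 CPM, followed by Rxrg, a retinoid X receptor, at 10.8, and Tnfsf11, the RANK ligand, at 8.90 CPM. Rims4 had 8.27 CPM, Ms4a4d 7.30, Csn3 (kappa-casein) 6.55, Ndnf 5.71 and Dcn (the matrix proteoglycan decorin) 4.74 CPM. On the other side of the rule was Dll1, a Notch ligand, with 2 counts at 0 h and 40.8 CPM in the lower medium at 40 h. That was close to Car4 in CPM but not per length. Per kilobase at 40 h Dll1 was at 11.9 and 12.9 CPM in the 2i/LIF and serum arms, against 40.1 and 32.8 for Car4.

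**Figure D4:**
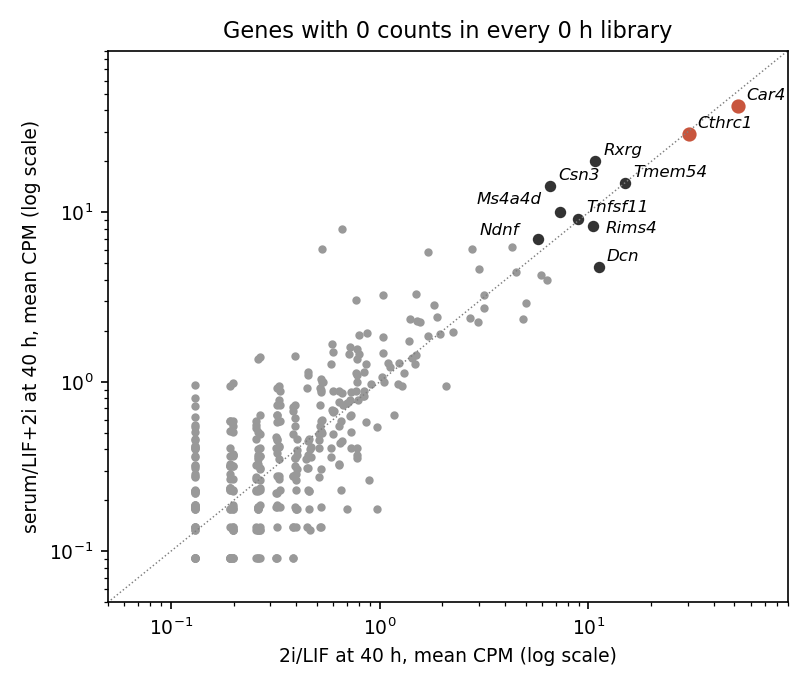
Mean CPM at 40 h in the 2i/LIF arm (x) and the serum arm (y), both on log axes, for the 356 genes with 0 counts in every 0 h library and at least 1 count in every 40 h library. Large points mark Car4 and Cthrc1, dark points the next 8 genes by the lower mean, and the dotted line equal levels. Car4 and Cthrc1, chosen for such levels, lie apart at the upper end, at 42.6 and 28.9 CPM or more in both media. The next gene is at 14.9 CPM.

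Genes with a pattern like that of each member were ranked by Pearson's r of log2 CPM (prior count 2) over the 16 libraries, among 11862 other genes that passed the filter on low counts and reached a group mean of 5 CPM. These r values are descriptions, since all libraries share the time course. The 5 nearest to Car4 were Rims4 (r = 0.9878), Nt5dc2 (0.9865), Cthrc1 itself (0.9862), Chtf8 (0.9861) and Spire1 (0.9858). The 5 nearest to Cthrc1 were Nt5dc2 (0.99), Limd2 (0.9894), Zfp608 (0.9893), Fam49a (0.987) and Car4. The likeness is in the shape over time and not in the size of change. Nt5dc2 went from 36.3 ± 1.44 to 256 ± 10.2 CPM between 0 and 40 h in the 2i/LIF arm and from 44.4 ± 1.86 to 222 ± 1.34 in the serum arm. Chtf8 went only from 178 ± 2.54 to 250 ± 1.84 CPM in the 2i/LIF arm. Zfp608, among the 5 nearest to Cthrc1, had 4 counts over the 0 h libraries and 38.9 ± 2.18 and 26.3 ± 0.879 CPM at 40 h in the 2i/LIF arm and the serum arm. Many genes were nearly as close, 216 being over 0.95 for Car4 and 215 for Cthrc1. The named genes also rest on the measure, since 0 of the 5 stayed among the nearest by Spearman's rho for either member.

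The other carbonic anhydrases were taken from a list of 15, of which 10 passed the filter. Between 0 and 40 h, 5 rose and 4 fell in the 2i/LIF arm, and 5 rose and 1 fell in the serum arm (edgeR, adjusted p under 0.05). Over all genes 68.8% were called in the 2i/LIF arm, with 34.1% higher and 34.7% lower, and 70.5% in the serum arm, with 35.3% each way. The list's median log2 fold change was 1.73 and 1.18, against 0.01 and -0.00 over all genes, or 1.42 and 1.18 with genes at the limit of 3 counts set to their bound. At 0 h, Car3, Car6, Car12 and Car14 were at that limit in the 2i/LIF arm, and Car3 and Car14 in the serum arm. Genes this low at 0 h passed the filter through later groups, which favours rises in the counts and medians of this list. Car2, the abundant cytosolic enzyme, rose from 9.42 ± 0.645 to 78.3 ± 1.29 CPM in the 2i/LIF arm (log2 fold change 3.05 ± 0.12, adjusted p 1.57e-44) and from 19.2 ± 4.57 to 132 ± 10.7 CPM in the serum arm (2.77 ± 0.09). Car14, a membrane-spanning enzyme with its active site outside the cell, rose from 0.162 ± 0.0145 to 8.63 ± 1.44 and from 0.367 ± 0.104 to 4.57 ± 0.245 CPM. Car12, another membrane-spanning form, rose from 0.410 ± 0.151 to 2.68 ± 0.247 and from 0.955 ± 0.520 to 3.70 ± 0.857 CPM. The secreted Car6 rose from 0.152 and 0.367 CPM to 2.82 ± 0.623 and 6.53 ± 0.212 CPM. Car3, a cytosolic form of low activity, rose to 2.03 ± 0.209 and 2.79 ± 0.164 CPM from levels at 0 h under the limit of 3 counts.

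Car8, a relative that lacks the enzymatic activity, fell in both media, from 18.7 ± 1.64 to 0.914 ± 0.0527 CPM in the 2i/LIF arm and from 20.5 ± 3.21 to 0.237 ± 0.213 CPM in the serum arm. The cytosolic Car13 fell from 41.3 ± 1.91 to 10.0 ± 0.898 CPM in the 2i/LIF arm (log2 fold change -2.04 ± 0.13), while in the serum arm it went from 12.6 ± 0.523 to 10.4 ± 0.397 CPM (-0.28 ± 0.15, adjusted p 0.0964, edgeR). The mitochondrial Car5a and Car5b fell in the 2i/LIF arm, with log2 fold changes of -2.18 ± 0.57 and -1.06 ± 0.39, and had values of -0.27 ± 0.55 and -0.01 ± 0.32 in the serum arm. Car11, another relative without activity, had log2 fold changes of 0.78 ± 0.37 and 0.41 ± 0.26 with adjusted p of 0.0558 and 0.145. Whether these effects differed between the media was not tested. Per length at 40 h, Car4 was second to Car2 among the 11 carbonic anhydrases that passed the filter. Car2 was at 43.7 ± 0.718 CPM per kilobase in the 2i/LIF arm and 73.6 ± 5.99 in the serum arm, without overlap with Car4 in either, and the next gene was Car14 at 5.31 ± 0.885 in the 2i/LIF arm and Car6 at 4.76 ± 0.155 in the serum arm.

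**Figure D5:**
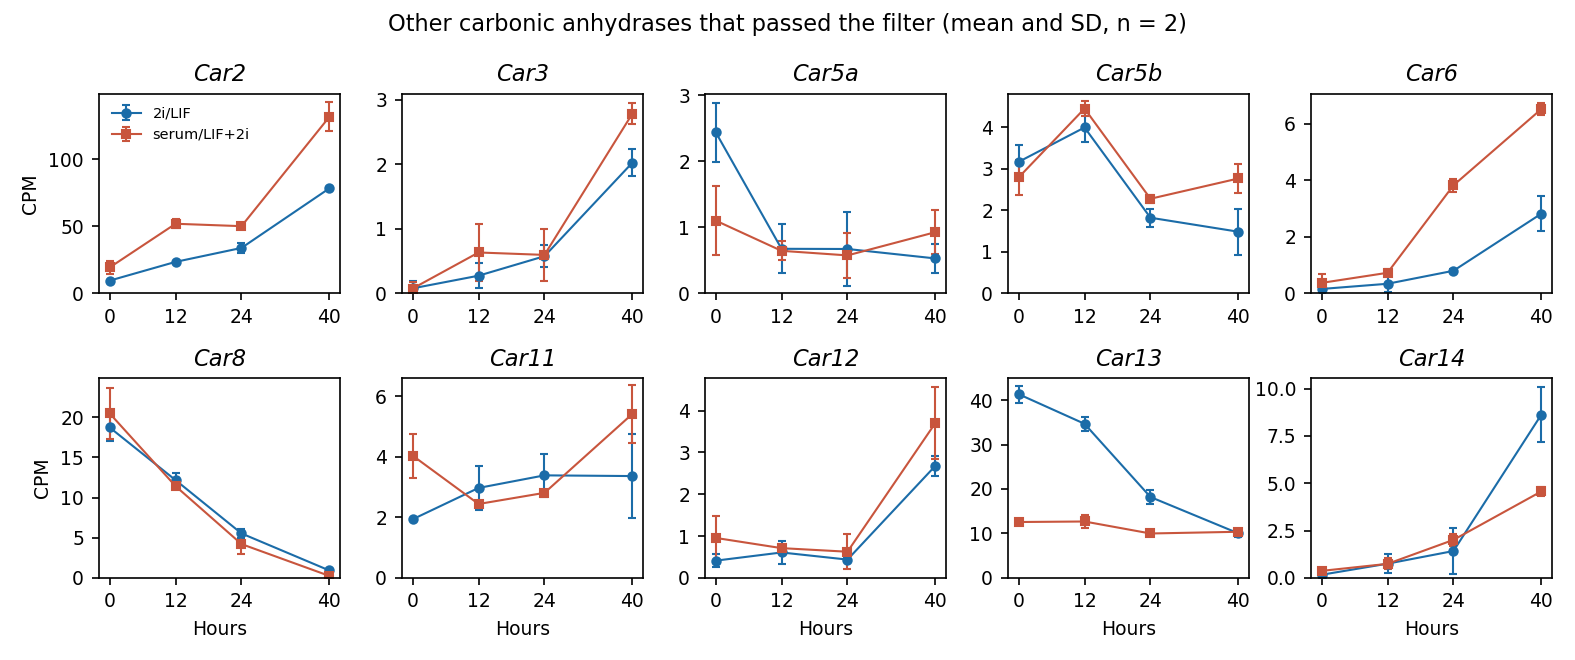
Mean CPM with SD (n = 2) against hours after release for the 10 other carbonic anhydrases that passed the filter, in the 2i/LIF arm (circles) and the serum arm (squares), each panel on its own axis from 0. Car2 reaches 78.3 and 132 CPM at 40 h, Car8 goes down to 0.914 and 0.237 CPM in both media, and Car13 starts higher in the 2i/LIF arm (41.3 CPM) than in the serum arm (12.6 CPM).

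Carriers of acid, base and monocarboxylates, beside which surface carbonic anhydrases work, were called in both directions. Of 24 listed, 18 passed the filter, and 6 rose and 10 fell in the 2i/LIF arm and 7 rose and 8 fell in the serum arm, with medians of -0.50 and -0.26. Over all genes 68.8% and 70.5% were called, with near-equal shares each way and medians of 0.01 and -0.00. Slc16a3, the lactate exporter MCT4, rose from 13.6 ± 0.755 to 263 ± 19.3 CPM in the 2i/LIF arm (4.27 ± 0.09 on the log2 scale, adjusted p 7.94e-55, edgeR) and from 29.2 ± 5.82 to 155 ± 1.39 CPM in the serum arm (2.40 ± 0.08). Emb (embigin) and Bsg (basigin) are partner chains of such carriers. Emb rose from 40.5 ± 2.93 to 244 ± 13.1 and from 30.4 ± 3.52 to 140 ± 0.600 CPM, and Bsg fell, with log2 fold changes of -0.38 ± 0.04 and -0.47 ± 0.04. The anion exchanger Slc4a3 rose by 3.12 ± 0.29 and 2.68 ± 0.22 and the proton exchanger Slc9a5 by 2.68 ± 0.26 and 2.07 ± 0.20, whereas the bicarbonate carrier Slc4a5 fell (-1.12 ± 0.08 and -1.15 ± 0.07).

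Wnt receptors and genes of planar cell polarity, the setting in which Cthrc1 has been described, were called in near-equal numbers each way. Of 34 listed, 31 passed the filter, and 13 rose and 11 fell in the 2i/LIF arm and 15 rose and 12 fell in the serum arm, with medians of 0.02 and -0.00. These stand beside 34.1% higher and 34.7% lower over all genes in the 2i/LIF arm and 35.3% each way in the serum arm, with medians of 0.01 and -0.00. Among Frizzled receptors, Fzd7 rose from 36.1 ± 0.593 to 269 ± 14.4 CPM in the 2i/LIF arm and from 40.8 ± 1.78 to 177 ± 9.96 in the serum arm. Fzd2 rose by 2.90 ± 0.13 and 3.13 ± 0.14 on the log2 scale. Fzd10 fell from 168 ± 4.20 to 3.94 ± 1.34 CPM and from 76.2 ± 9.47 to 5.96 ± 1.32 CPM, and Fzd5 fell with log2 fold changes of -1.92 ± 0.07 and -2.13 ± 0.06. Ptk7, a receptor-like protein of the polarity pathway, rose by 0.38 ± 0.04 and 1.28 ± 0.04, and the core polarity gene Vangl1 fell (-2.79 ± 0.10 and -3.22 ± 0.09). Ror1 and Ror2 were chosen for mention after their values were seen. In the 2i/LIF arm Ror2 went from 81.8 CPM at 0 h to 22.2, 20.2 and 33.5 CPM at 12, 24 and 40 h. In the serum arm it went from 46.2 to 16.4, 15.2 and 37.1 CPM. In both arms it was thus lower at 40 h than at 0 h but higher than at 24 h. Ror1 went from 1.11 to 12.3 CPM between 0 and 40 h in the 2i/LIF arm and from 0 to 3.64 CPM in the serum arm.

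Enzymes and chaperones that modify collagen-like chains made up the last list, of 28 genes with 23 that passed. In the 2i/LIF arm 11 rose and 8 fell, and in the serum arm 11 rose and 10 fell, with medians of 0.15 and 0.12. The shares over all genes were again 34.1% higher and 34.7% lower, and 35.3% each way, with medians of 0.01 and -0.00. Fkbp10, a collagen chaperone, rose from 1.60 ± 0.314 to 25.99 ± 1.87 CPM in the 2i/LIF arm and from 2.35 ± 0.415 to 45.0 ± 2.65 in the serum arm. Serpinh1, the collagen chaperone HSP47, rose by 0.15 ± 0.06 and 1.77 ± 0.06 on the log2 scale. Those that fell included Pcolce, an enhancer of procollagen cleavage, with log2 fold changes of -2.86 ± 0.07 and -2.52 ± 0.08, and Crtap, a subunit of a collagen prolyl hydroxylase complex, with -1.39 ± 0.07 and -0.82 ± 0.06. The collagen galactosyltransferase Colgalt1 had -0.91 ± 0.05 and -1.29 ± 0.05, and the lysyl hydroxylase Plod1 -0.66 ± 0.12 and -1.27 ± 0.10.

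The nearest counted genes on the chromosome were also read. Over all genes, 68.8% were called between 0 and 40 h in the 2i/LIF arm and 70.5% in the serum arm. Slc25a32, 4109 bases beyond Cthrc1, rose by 0.44 ± 0.12 in the 2i/LIF arm and 0.78 ± 0.11 in the serum arm on the log2 scale, and Fzd6, 38740 bases before it, by 0.65 ± 0.19 and 1.46 ± 0.16. Beside Car4, Znhit3 (41388 bases before it) rose by 0.53 ± 0.11 and 0.20 ± 0.09 (adjusted p 4.44e-06 and 0.047, edgeR). Usp32, 18383 bases beyond Car4, fell in the 2i/LIF arm (-0.54 ± 0.07) and had a value of -0.07 ± 0.07 in the serum arm. All 4 of these genes had counts at 0 h, with means of at least 7.27 CPM in every 0 h group.

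Because Cthrc1 is known from fibroblasts and Car4 from capillaries, markers of other cell types were read beside them. The summed level of 8 fibroblast or feeder markers was 3.96 to 4.10 CPM at 0 h and 15.4 to 22.3 CPM at 40 h in the 2i/LIF arm, and 2.64 CPM in both libraries and then 10.7 to 11.7 CPM in the serum arm. Of the 8, 2 were over 3 counts in both libraries at 0 h and 4 at 40 h, in each arm. Dcn reached 11.2 ± 3.13 and 4.74 ± 1.09 CPM. Thy1 went from 0.573 to 5.05 and from 1.32 to 2.99 CPM, and Col1a1 from 0.811 to 1.35 and from 0.955 to 2.51 CPM. Col1a2 went from 2.14 to 1.10 and from 0.294 to 0.839 CPM. Postn was at 0 in all libraries at 0 and 40 h. At 40 h Col3a1 and Lum had at most 1 count per library and Acta2 at most 2. The 4 endothelial markers summed to 178 to 180 CPM at 0 h and 72.9 to 91.7 CPM at 40 h in the 2i/LIF arm, and to 174 to 184 and 93.1 to 99.5 CPM in the serum arm. Nearly all of that sum was Pecam1, which embryonic stem cells also express, at 169 and 72.9 CPM in the 2i/LIF arm and 166 and 89.4 CPM in the serum arm. Cdh5 was at 0 in every 0 h and 40 h library, Kdr was at most 4.26 CPM in any of these groups, and Tek went from 6.81 to 9.06 CPM in the 2i/LIF arm and from 8.59 to 6.54 CPM in the serum arm. The 10 endoderm markers summed to 6.23 to 6.72 CPM at 0 h and 12.5 to 14.7 CPM at 40 h in the 2i/LIF arm, and to 6.91 to 7.05 and 18.3 to 19.7 CPM in the serum arm. Most of the gain was Dab2, from 1.12 to 8.43 CPM and from 2.72 to 9.77 CPM, while Gata4 went from 2.27 to 1.59 CPM and from 2.42 to 3.71 CPM, and Ttr was at 0. The 4 neuroectoderm markers summed to 47.4 to 47.8 CPM and then 93.8 to 101 CPM in the 2i/LIF arm, and to 29.2 to 32.6 CPM and then 127 CPM in the serum arm. Of these, Tubb3 went from 46.3 to 60.9 CPM and from 25.4 to 69.4 CPM, and Sox1 from 0.659 to 22.6 CPM and from 4.33 to 47.2 CPM. The 6 trophoblast markers summed to 26.7 to 38.3 CPM at 0 h, mostly Cdx2 and Tfap2a, and 3.13 to 4.51 CPM at 40 h over both arms. The 6 markers of primitive streak and mesoderm summed to 20.3 to 37.6 CPM at 0 h, mostly T and Eomes, and 3.63 to 5.61 CPM at 40 h. The part of these markers in the levels of Car4 and Cthrc1 was not tested.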

How the data were processed

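RNA was extracted with TRIzol and made into stranded poly(A)-selected libraries, per the labels' protocols. The authors deposited raw counts per gene as whole numbers, beside Entrez number, symbol and length. The tools fastp, STAR and featureCounts on mm10 are named in the submitters' processing notes; versions, annotation release and strand setting are not given in the sources used here. All 16 columns of values belonged to libraries, matched by title. Genes were kept with filterByExpr (minimum count 10, minimum total 15), which left 14288 of 27179, both Car4 and Cthrc1 included. One edgeR 4.0.16 model (R 4.3.3) with a term per group and TMM scaling was fitted to all libraries, with robust quasi-likelihood tests (two-sided) and Benjamini-Hochberg adjustment over 14288 genes, with calls below 0.05. The F statistic gave the standard errors. DESeq2 1.42.0, other scalings, no filter, fewer groups, no ribosomal RNA genes, a replicate block and leaving out each library were the alternatives.

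The members, lists, motifs and markers were chosen with earlier results of these data known. Beyond both members and the markers, the text names the 5 genes most like each member and the 10 highest genes at 40 h with 0 counts at 0 h. Also named are the carbonic anhydrases that passed the filter, up to 6 members of each other list by smallest adjusted p, and the nearest genes. Outside these rules, Dll1 was named as the highest at 40 h of the genes with 1 to 3 counts at 0 h. Ror1 and Ror2 were named after their values were seen. The median of a list is over members that passed the filter, among which a gene absent at 0 h could pass only through later groups. Promoter sequence is from RefSeq (GRCm38.p6). No replicate numbering was used to pair libraries.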

Additional observations from a re-analysis of the deposited data

Results flagged for a closer look

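The effect of the medium on Car4 was singled out because its level or its step differed between the arms by a test of that difference. The fitted log2 fold change of the serum arm over the 2i/LIF arm took the values 1.84 (12 h), 1.26 (24 h) and -0.30 (40 h), and the step from 24 to 40 h differed by -1.55 between the media. Of these, the values at 24 h and of the step were called in all 23 alternatives, those at 12 h in 18 of 22 and those at 40 h in 20 of 23. Groups of 2 libraries were too small to look for a single library far from the others. The 40 h levels of both arms were used to choose the gene, so the values at 40 h and of the step are not independent of that choice.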

How the results depend on the processing

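The 6 comparisons between media and the 4 differences between steps were recomputed under every alternative, except that with only the groups compared neither gene passed the filter at 12 h. With DESeq2 the log2 fold change of Car4 was 1.91 at 12 h and -0.29 at 40 h, neither called. Leaving out 1 library at a time gave 1.27 to 2.78 at 12 h, where 3 libraries ended the call, -0.36 to -0.24 at 40 h, where 2 did, and -1.52 to 0.0027 for the step from 12 to 24 h, which was not called in any of them and turned its sign without replicate 2 of the 2i/LIF arm at 12 h. For Car4 at 24 h the range was 1.03 to 1.49 and for its step from 24 to 40 h -1.79 to -1.33. Why these calls were lost was not tested. Without division by gene length the ratio of Car4 to Cthrc1 at 40 h was 1.72 in the 2i/LIF arm and 1.48 in the serum arm. Of the 5 genes most like Car4, 0 remained by Spearman's rho, 1 over the 8 group means and 2 with a prior count of 0.5, and of those most like Cthrc1, 0, 3 and 1 remained. Counts of called list members and shares of the 40 h level stayed within 1.5 times, or within the spread, in every alternative. Replicate numbers gave no sign of pairing the libraries, with deviations correlated at -0.02 to 0.03 over 28 pairs of groups. Such values cannot show that there was no pairing. With the replicate block Car4 had 1.84, 1.26 and -0.30 at 12, 24 and 40 h and -1.55 for the later step, with no call changed. Depth limits the 12 h comparisons, where each gene had 17 or fewer counts per group.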
